A study of Danio rerio with 18 samples.

Results

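The Delta-Notch pathway was followed through 10 genes, the ligand genes dla, dlb, dlc and dld, the receptor genes notch1a, notch1b and notch3, and the hairy-related (her) genes her4.5, her6 and her9. Whether each her gene responds to Notch in these cells was not tested. Every probe set annotated to exactly 1 of these genes was taken, which gave 15 of the 15617 probe sets on the array and 10 of the 8793 genes that the array's annotation names singly. Expression was measured in cells sorted by green fluorescence (GFP) from zebrafish embryos at 14 to 16 somites, kept at 28 °C. A wild-type line carried a miR-206 reporter, whose GFP-positive cells the labels call muscle. A second wild-type line and a Dicer-mutant line, named MZ in the labels without an explanation, carried a miR-124 reporter, whose GFP-positive cells the labels place in the central nervous system (CNS). The GFP-negative cells of each line are the rest of the body, and each of the 6 groups had 3 arrays, called biological replicates in the labels. The reporter constructs, the Dicer allele and the number of embryos per sort are not stated in the labels, and p-values rest on the description of the arrays as biological replicates.

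Delta proteins are membrane ligands that bind Notch receptors on a neighbouring cell. The bound receptor is cut, its intracellular part enters the nucleus, and with the factor Rbpj it switches on hairy and enhancer-of-split (her) genes, which repress proneural genes. In the neural plate this exchange, called lateral inhibition, keeps some cells as progenitors while neighbours become neurons. In the presomitic mesoderm the same pathway keeps the oscillations of the segmentation clock in step between cells, and zebrafish mutants of dlc, dld and notch1a form irregular somites.

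Of the 15 probe sets, 12 passed the filter on low values, and they cover 9 of the 10 genes. To pass, the intensity had to exceed the array's 40th percentile, which was between 18.5 and 26.6 units, on at least 3 of the 18 arrays. The single notch1b probe set did so on 1 array and ran from 2.8 to 25.0. Of 3 dlc probe sets, dlc-b did so on 1 array, with values from 4.5 to 18.6. Of 2 her4.5 probe sets, her4.5-b did so on 0 arrays, with values from 1.2 to 12.7. These 3 were not tested in the main fit, and nothing can be said of notch1b beyond its low signal. Probe sets of the same gene are told apart by a letter. The pair for dlb is Dr.574.1.S1_at (dlb-a) and Dr.574.2.S1_at (dlb-b), and those for dlc are Dr.16183.1.S1_at (dlc-a), Dr.8086.1.S1_at (dlc-b) and Dr.8086.1.S1_s_at (dlc-c). The pair for notch1a is Dr.11847.1.S1_s_at (notch1a-a) and Dr.11847.1.S1_x_at (notch1a-b), and for her4.5 Dr.5372.1.S1_x_at (her4.5-a) and Dr.5372.2.A1_a_at (her4.5-b). By the maker's naming, probes of an _s_at or _x_at set can also match other transcripts. Levels are intensities and are compared between samples, never between probe sets.

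Changes are log2 fold changes of intensity + 16, a scale that understates the change of dim probe sets. They are given with their standard error (SE) and limma's p adjusted over all 10704 probe sets tested, and a change was called at an adjusted p under 0.05. Median intensity per array lay between 31.1 and 45.2, replicates correlated at 0.959 to 0.989 and arrays of different groups at 0.787 to 0.972. The targeted gene dicer1 averaged 140 ± 60.2 (SD, n = 3 here and below) in CNS cells of the mutant and 245 ± 18.3 in those of the wild type (-0.81, adjusted p = 0.0229), and 93.5 ± 22.8 against 198 ± 87.9 in the rest (-0.90, adjusted p = 0.0122). Whether its probes lie in the mutated part of the gene is not known. In muscle cells 11 of 11 sarcomere markers rose against the rest. In CNS cells 12 of 12 neural progenitor and 6 of 10 neuron markers rose in the wild type, and 11 of 12 and 7 of 10 in the mutant. Epidermal markers were lower in CNS cells for 8 of 8 in the wild type, but for 3 of 8 in the mutant. Their summed intensity was 1480 to 2446 against 7052 to 8736 in the wild-type rest. In the mutant it was 4514 to 6775, overlapping its rest at 5741 to 8003. The muscle sort also held presomitic signal: 7 of 10 presomitic and tail bud markers were higher and 1 lower than in its rest, and their summed intensity was 7352 to 8191 against 2071 to 3081. In bulk sorts, a larger share of expressing cells and more RNA per cell cannot be told apart.

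Transcripts of the neural ligand gene dla were highest in CNS cells of both genotypes. The 3 wild-type CNS arrays read 1062.2, 958.5 and 871.3, and the rest of the same line 395.6, 413.8 and 384.5. In the mutant line the CNS arrays read 1267.7, 1236.4 and 1142.6 and the rest 396.9, 531.0 and 433.1. In the miR-206 line the muscle arrays were the lowest of the series at 251.4, 348.7 and 333.5, against 629.1, 561.4 and 406.3 in the rest. CNS and rest did not overlap in either genotype, and neither did muscle and its rest. The gene rose in CNS cells by 1.24 (SE 0.16, adjusted p = 3.84e-06) in the wild type, or 2.36-fold, and by 1.40 (SE 0.16, adjusted p = 1.6e-06) in the mutant. It fell by 0.74 on the log2 scale in muscle cells (SE 0.16, adjusted p = 0.00102). From highest to lowest the groups ran mutant CNS, wild-type CNS, miR-206 rest, mutant rest, wild-type miR-124 rest and muscle. The 3 rest groups overlapped with one another, but not with the CNS or muscle groups.

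The gene dlb, another Delta ligand of the developing nervous system, shared this sort pattern and was higher in the Dicer mutant as well. Probe set dlb-a read 326.2, 421.8 and 375.1 in wild-type CNS cells and 104.4, 196.4 and 192.8 in the rest. In the mutant it read 882.5, 928.9 and 793.8 in CNS cells and 257.2, 529.8 and 330.3 in the rest. Each mutant fraction lay above the same fraction of the wild type on every array, and mutant rest overlapped wild-type CNS cells. Muscle cells had the lowest values, at 35.4, 70.6 and 65.0 against 206.9, 253.1 and 216.9 in their rest. CNS cells exceeded the rest by 1.15 in the wild type (SE 0.24, adjusted p = 0.000923) and by 1.24 in the mutant (SE 0.24, adjusted p = 0.000865), and muscle cells fell by 1.76 on the log2 scale (SE 0.24, adjusted p = 7.22e-06).

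The second dlb probe set had a dimmer signal and followed the first (r = 0.936 over 18 arrays, a description that mostly reflects differences between groups). It read 73.0, 76.9 and 66.8 in mutant CNS cells and 24.0, 31.7 and 27.6 in wild-type CNS cells. The rest read 27.0, 40.6 and 25.5 in the mutant, 13.9, 21.6 and 19.4 in the wild-type miR-124 line and 29.4, 26.3 and 22.9 in the miR-206 line. The muscle arrays read 8.6, 14.0 and 13.9. All values of muscle and of the wild-type miR-124 rest were under the 40th percentile of their array, as was 22.9 in the miR-206 rest. Mutant CNS cells stood clear of every other group. In muscle cells dlb-b fell by 0.59 on the log2 scale (SE 0.15, adjusted p = 0.00433), and by 0.39 with arrays centred on their medians (adjusted p = 0.0506). The CNS change was called in the mutant (0.92, SE 0.15, adjusted p = 0.000137), whereas in the wild type it was 0.35 (SE 0.15, adjusted p = 0.0807) although the groups did not overlap. The wild-type CNS value passed with arrays centred on their medians (0.50, adjusted p = 0.0134), with quantile normalization (0.53, adjusted p = 0.01) and with array weights (0.44, adjusted p = 0.0398).

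**Figure D1:**
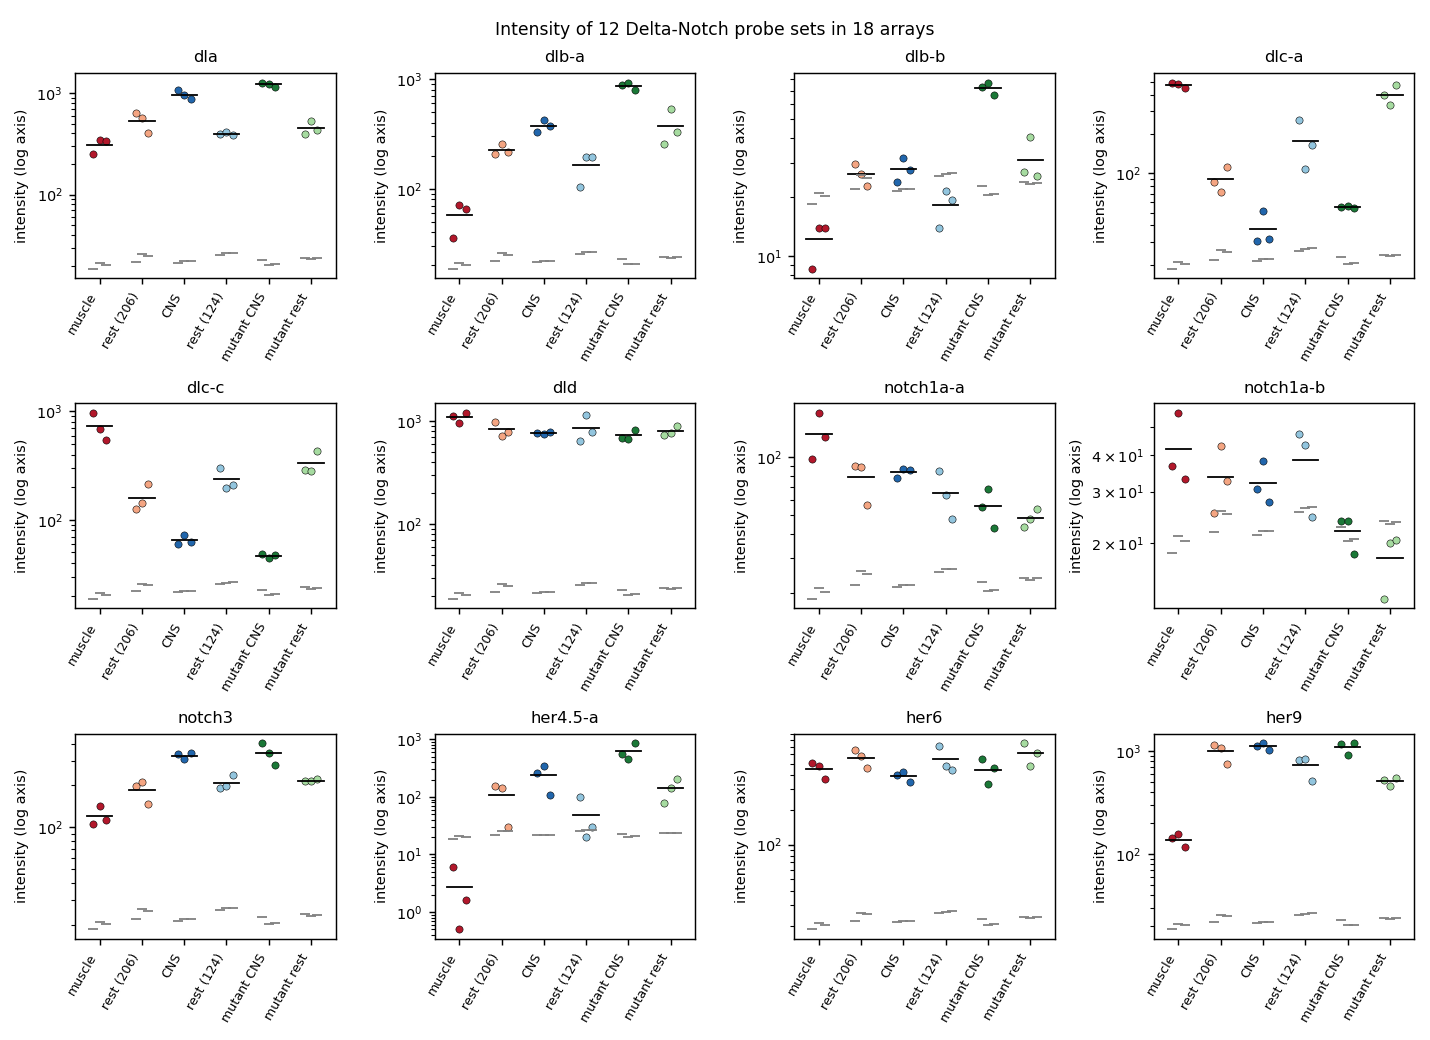
Intensity (log axis) of the 12 probe sets that passed the filter, by sorted group, where each dot is 1 of 18 arrays, the black line is the mean of 3 arrays and grey ticks mark the 40th percentile of each array. The gene dla and dlb-a are highest in CNS cells, dlc-a and dlc-c highest in muscle cells, and the 3 muscle values of her4.5-a (0.5 to 6.0) lie under the grey ticks.

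The ligand gene dlc, which oscillates in the presomitic mesoderm, ran the other way. Probe set dlc-c read 973.1, 687.9 and 549.5 in muscle cells and 125.5, 143.8 and 212.4 in their rest. In CNS cells it read 60.1, 73.0 and 62.3 in the wild type and 48.5, 44.5 and 46.9 in the mutant. The rest of the miR-124 lines read 302.0, 196.9 and 208.3 in the wild type and 289.0, 282.4 and 428.2 in the mutant. Muscle cells lay above every other array, and CNS cells of both genotypes below every other array. The rise in muscle cells was 2.08 (SE 0.21, adjusted p = 1.43e-07), or 4.24-fold. In CNS cells the level fell by 1.61 on the log2 scale in the wild type (SE 0.21, adjusted p = 6.1e-06) and by 2.45 in the mutant (SE 0.21, adjusted p = 4.73e-08).

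Probe set dlc-a was designed on another sequence of the same gene and gave the same order of muscle and CNS cells (r = 0.937 with dlc-c over 18 arrays). It read 494.4, 478.1 and 452.0 in muscle cells and 86.3, 71.8 and 111.5 in their rest. CNS cells read 30.1, 51.9 and 31.2 in the wild type and 55.7, 56.1 and 53.8 in the mutant. The rest read 253.9, 107.1 and 165.0 in the wild-type miR-124 line and 396.1, 333.9 and 471.3 in the mutant. Here mutant rest overlapped muscle cells, which was not so for dlc-c. The changes were 2.23 in muscle (SE 0.22, adjusted p = 8.63e-08), -1.78 in wild-type CNS cells (SE 0.22, adjusted p = 2.62e-06) and -2.54 in mutant CNS cells (SE 0.22, adjusted p = 4.67e-08). With a pseudocount of 64 the CNS values of dlc-a were -1.19 and -1.95, and that of dlc-c in the mutant was -1.82. Probe set dlc-b, left out of the main fit, read 18.6, 13.4 and 13.6 in muscle cells and 4.5 to 14.0 elsewhere. With no filter on low values it was called in muscle against its rest and in muscle against CNS cells, highest in muscle by mean but near background.

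The ligand gene dld, which acts both in neurogenesis and in the segmentation clock, was not called in any of the 3 sorts, with muscle cells the highest by mean. Muscle cells read 1138.9, 960.8 and 1214.2 and their rest 988.1, 724.5 and 795.8. CNS cells read 768.0, 750.2 and 792.9 in the wild type and 688.0, 680.9 and 820.5 in the mutant. The rest read 647.4, 1142.5 and 780.5 in the wild-type miR-124 line and 744.4, 767.6 and 893.9 in the mutant. Every neighbouring pair in the order of the group means overlapped, while muscle cells lay above CNS cells of both genotypes on every array. The CNS changes were -0.11 in the wild type (95% interval -0.46 to 0.24, adjusted p = 0.67) and -0.13 in the mutant (-0.49 to 0.22, adjusted p = 0.708), which leaves room for a change of up to 0.49 in size. In muscle cells the change was 0.40 (SE 0.17, adjusted p = 0.075). With the fractions paired by replicate number it was called (0.40, adjusted p = 0.041), and likewise with arrays centred on their medians (0.60, adjusted p = 0.0147), with array weights (0.47, adjusted p = 0.0136), without rest replicate 1 (0.52, adjusted p = 0.026), without miR-124 rest replicate 1 (0.40, adjusted p = 0.0479) or replicate 2 (0.40, adjusted p = 0.0248).

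Among the receptors, notch3, which is known from neural progenitors and from the cells around vessels, was higher in CNS cells. The wild-type CNS arrays read 335.1, 308.8 and 340.2 against 191.3, 197.9 and 237.3 in the rest. The mutant CNS arrays read 403.9, 343.8 and 279.6 against 216.6, 214.0 and 220.8. Muscle cells read 106.1, 141.6 and 112.9, below their rest at 197.7, 211.4 and 148.4. The groups did not overlap in any of the 3 lines, and both CNS groups overlapped each other. The rise in CNS cells was 0.62 in the wild type (SE 0.16, adjusted p = 0.00423) and 0.61 in the mutant (SE 0.16, adjusted p = 0.00914), and 0.48 in the mutant without CNS replicate 1 (adjusted p = 0.0682). In muscle cells it fell by 0.56 on the log2 scale (SE 0.16, adjusted p = 0.00757), and by 0.37 with arrays centred on their medians (adjusted p = 0.067).

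The receptor gene notch1a, which acts in both somites and neural tissue, was called in 1 of the 3 sorts, that of muscle, and by 1 of its 2 probe sets. Probe set notch1a-a read 97.2, 168.2 and 126.9 in muscle cells and 89.6, 88.5 and 56.7 in their rest. CNS cells read 77.4, 86.8 and 85.2 in the wild type and 55.2, 68.5 and 42.8 in the mutant, and the rest 84.3, 63.8 and 47.6 and 43.4, 47.7 and 54.1. Muscle cells were higher than their rest by 0.63 (SE 0.20, adjusted p = 0.0184). That call was lost without muscle replicate 2 (0.45, adjusted p = 0.115), without rest replicate 3 (0.45, adjusted p = 0.118) and when only these 6 arrays were fitted (adjusted p = 0.0612). The CNS changes were 0.31 in the wild type (95% interval -0.11 to 0.73) and 0.14 in the mutant (-0.28 to 0.56). Probe set notch1a-b ran from 12.9 to 55.7, and its changes in the 3 sorts, between -0.16 and 0.22, were not called.

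Of the her genes, her4.5 belongs to the her4 cluster, a set of near-identical neighbouring copies that respond to Notch in the neural plate. Probe set her4.5-a read 263.4, 347.2 and 107.2 in wild-type CNS cells and 97.8, 20.1 and 30.3 in the rest. In the mutant it read 558.5, 457.8 and 863.4 in CNS cells and 78.1, 141.2 and 204.6 in the rest. In muscle cells the signal was 6.0, 0.5 and 1.6, against 154.4, 140.5 and 29.7 in their rest. CNS cells lay above the rest on every array of both genotypes, with a wide spread within each group. The changes were 2.01 (SE 0.48, adjusted p = 0.00264) in wild-type and 2.07 (SE 0.48, adjusted p = 0.00407) in mutant CNS cells, and -2.53 (SE 0.48, adjusted p = 0.000277) in muscle cells. The muscle value has no firm size: it was -4.86 with a pseudocount of 1, -1.27 with 64 and -3.14 without rest replicate 3. In wild-type CNS cells it was 1.39 with 64.

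Signal from such copies cannot be fully separated by this array. Of the 4 probe sets that cover other her4 copies or several of them at once, 2 annotated to her4.2 alone rose in wild-type CNS cells by 1.65 and 1.82 (adjusted p = 0.0031 and 0.000859). The set annotated to her4.2, her4.3 and her4.5 rose by 1.56 (adjusted p = 0.00627), and that annotated to her4.1, her4.3 and her4.5 changed by 0.65 (adjusted p = 0.121). In the mutant all 4 rose in CNS cells, by 1.61 to 1.98. In muscle cells these 4 averaged between 2.13 and 7.93.

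The gene her9 was lower in muscle cells and higher in CNS cells than in the rest. It is a relative of mammalian Hes1 that marks neural territory between proneural domains. Muscle cells read 141.6, 155.1 and 117.1 and their rest 1150.9, 1077.1 and 743.1, a fall by 2.69 on the log2 scale (SE 0.18, adjusted p = 4.08e-10). CNS cells read 1115.5, 1184.2 and 1030.7 in the wild type and 1172.4, 920.0 and 1195.9 in the mutant. Their rest read 814.7, 838.9 and 516.7 and 524.8, 462.0 and 549.6. Muscle stood alone at the bottom, and the groups above it overlapped with their neighbours in order. The rise in CNS cells was 0.64 in the wild type (SE 0.18, adjusted p = 0.0114) and 1.07 in the mutant (SE 0.18, adjusted p = 0.000246). Without rest replicate 3 the wild-type rise was 0.42 and not called (adjusted p = 0.084).

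The other Hes1 relative, her6, was lower by mean in the sorted cells than in the rest of each line. It was not called in any of the 3 sorts in the main fit. Muscle cells read 501.4, 472.5 and 370.5 and their rest 657.1, 575.7 and 453.2. CNS cells read 397.3, 419.9 and 348.4 in the wild type and 542.5, 329.8 and 455.3 in the mutant, and their rest 714.1, 475.9 and 438.0 and 752.1, 471.8 and 620.0. Neighbouring groups in the order of the means overlapped, with the 3 rest groups at the top, and wild-type CNS cells did not overlap their own rest. The changes were -0.31 in muscle (adjusted p = 0.275), -0.44 in wild-type CNS cells (adjusted p = 0.123) and -0.46 in mutant CNS cells (adjusted p = 0.17). With the mutant fractions paired by replicate number the last was called (-0.46, adjusted p = 0.0223).

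Counted over the sorts, 3 of the 12 probe sets tested were higher and 6 lower in muscle cells, where 34.3% of all probe sets were called (12.5% higher and 21.8% lower). In wild-type CNS cells 5 were higher and 2 lower, with 31.6% of all probe sets called (14.2% and 17.4%). In mutant CNS cells 6 were higher and 2 lower, with 14.9% of all called (6.32% and 8.57%). Groups did not overlap for 9, 9 and 8 of the 12, whereas for 41.4%, 41.9% and 37.7% of all probe sets they did not. The probe sets called in the wild-type CNS sort, dla, dlb-a, dlc-a, dlc-c, notch3, her4.5-a and her9, were each called in the same direction in the mutant CNS sort. These sorts compare different arrays, but their tests share an estimate of the spread from all 18 arrays. With arrays centred on their medians the median change of all probe sets moved from -0.05 to 0.14 in the muscle sort and from 0.03 to 0.18 in the wild-type CNS sort, and the higher share of all calls from 36.5% to 60% and from 45.1% to 63.3%. Cell type markers moved with these counts. The 12 neural progenitor markers summed to 95.8 to 272.7 in muscle cells and 5572 to 6959 in their rest, and to 9671 to 10560 in wild-type CNS cells against 2493 to 2980. The 10 presomitic and tail bud markers summed to 162.7 to 490.3 in wild-type CNS cells against 2262 to 4780, and to 149.9 to 478.8 in mutant CNS cells against 4687 to 6629. Their part in the pathway values was not tested.

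**Figure D2:**
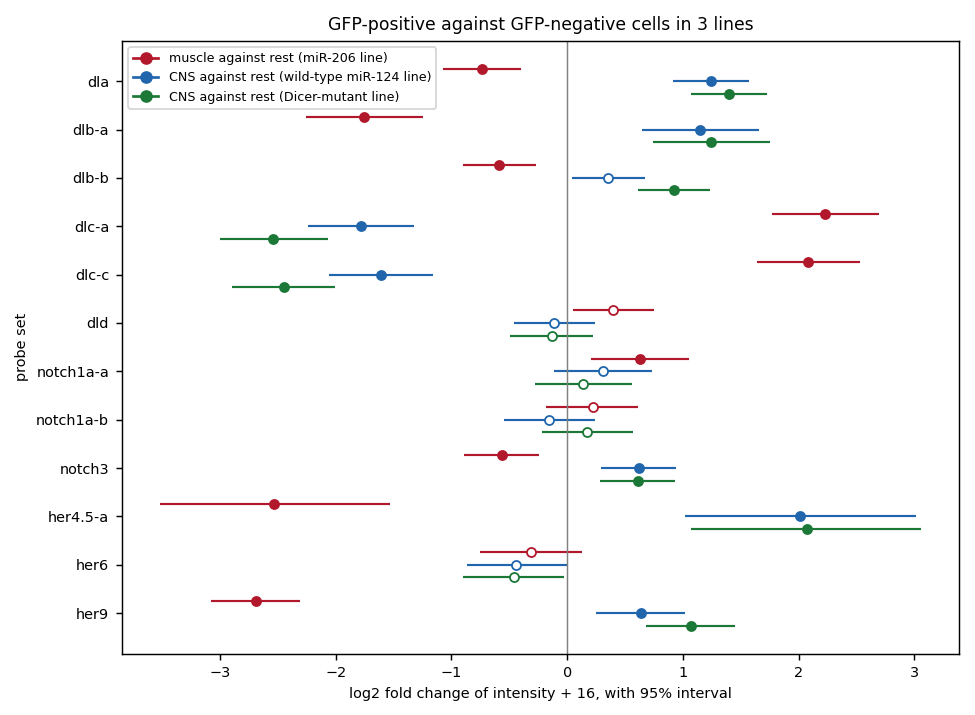
Log2 fold change of GFP-positive over GFP-negative cells in the 3 lines for 12 probe sets (x axis, of intensity + 16, with 95% intervals), where filled dots have an adjusted p under 0.05. The genes dla, notch3 and her9 and probe sets dlb-a and her4.5-a lie left of 0 in muscle and right of 0 in both CNS sorts, and dlc-a and dlc-c lie the other way.

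Muscle and CNS cells of the wild-type lines were also set against each other directly. In this comparison line and tissue cannot be told apart. Of the 12 probe sets, 4 were higher and 6 lower in muscle cells, where 43.2% of all probe sets were called (17.7% higher and 25.5% lower). Groups did not overlap for 10 of the 12, against 55.5% of all. Muscle exceeded CNS cells 9.28-fold in dlc-a (3.21, SE 0.22, adjusted p = 2.68e-10) and 9.05-fold in dlc-c (3.18, SE 0.21, adjusted p = 1.98e-10). CNS cells exceeded muscle 7.34-fold in her9 (-2.88, SE 0.18, adjusted p = 8.56e-11), 5.46-fold in dlb-a (-2.45, SE 0.24, adjusted p = 6.13e-08), 3.01-fold in dla (-1.59, SE 0.16) and 2.54-fold in notch3 (-1.34, SE 0.16). With a pseudocount of 64, dlc-a was at 2.41 and dlb-a at -1.86. The her4.5-a difference, -3.64 (SE 0.48), was -6.16 with a pseudocount of 1 and -2.09 with 64. The gene dld was higher in muscle by 0.50 (SE 0.17, adjusted p = 0.0206). That call was lost without muscle replicate 1 (0.48, adjusted p = 0.0586) or 3 (0.43, adjusted p = 0.0828) or CNS replicate 2 (0.49, adjusted p = 0.0584). Probe set notch1a-a, at 0.54 (SE 0.20, adjusted p = 0.035), was lost without muscle replicate 2 (0.36, adjusted p = 0.187) or 3 (0.54, adjusted p = 0.0703) and without any of the CNS replicates (0.50 to 0.57, adjusted p = 0.0976, 0.0617 and 0.0671).

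The rest fractions of both wild-type lines differ in what was removed from them, GFP-positive muscle cells in one and GFP-positive CNS cells in the other. Line and removed cells cannot be told apart. Neural progenitor markers still summed to 2493 to 2980 in the miR-124 rest, against 9671 to 10560 in its CNS cells. Sarcomere markers summed to 1497 to 2204 in the miR-206 rest, against 23930 to 30520 in its muscle cells. Only dlc-a was called of the 12 member probe sets, lower in the miR-206 rest by 0.80 on the log2 scale (SE 0.22, adjusted p = 0.0367), with overlapping groups. The other dlc probe set, dlc-c, changed by -0.52 (SE 0.21, adjusted p = 0.173), also with overlap. Of all probe sets 5.82% were called (3.64% lower). Groups did not overlap for 2 of the 12, against 17.3% of all. These were dlb-a and dlb-b, which were not called. When only these 6 arrays were fitted the adjusted p of dlc-a was 0.276. The call did not pass without miR-206 rest replicate 1 (-0.78, adjusted p = 0.0985) or 2 (-0.67, adjusted p = 0.112), nor without miR-124 rest replicate 1 (-0.51, adjusted p = 0.16) or 3 (-0.80, adjusted p = 0.0741). Without miR-206 rest replicate 3, dla (0.56, adjusted p = 0.0412) and her9 (0.64, adjusted p = 0.0475) were called higher in the miR-206 rest as well.

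Dicer cuts microRNA precursors into mature microRNAs, and the mutant comparison set the Dicer-mutant miR-124 line against the wild-type one. Genotype and line cannot be told apart in any comparison of mutant with wild type, the interaction included. The mutant comparison uses the same miR-124 arrays as the CNS sorts above, so these comparisons are not independent. In CNS cells dlb and her4.5 were higher in the mutant. The rise of dlb-a was 1.18 (SE 0.24, adjusted p = 0.000947), or 2.27-fold, and that of dlb-b 1.01 (SE 0.15, adjusted p = 4.87e-05), with no overlap of groups. Probe set her4.5-a rose from 239 ± 122 to 627 ± 211, by 1.42 (SE 0.48, adjusted p = 0.0273). That call was lost without wild-type CNS replicate 3 (0.96, adjusted p = 0.159), without mutant CNS replicate 1 (1.48, adjusted p = 0.0531) or 3 (1.17, adjusted p = 0.114) and with a pseudocount of 1 (1.49, adjusted p = 0.0879). These 3 were the calls among 12, where 33.3% of all probe sets were called (18.1% higher), and groups did not overlap for 8 of 12 against 54.9% of all. The receptor notch3 (0.05, 95% interval -0.28 to 0.37) and the her genes her9 (-0.03, -0.41 to 0.36) and her6 (0.16, -0.28 to 0.59) were not called.

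None of the remaining ligand and receptor probe sets was called in mutant CNS cells. The gene dld changed by -0.08 (95% interval -0.43 to 0.27, adjusted p = 0.75) and notch1a-b by -0.34 (adjusted p = 0.178). With array weights notch1a-b was called (-0.40, adjusted p = 0.0324). The gene dla was 0.33 higher (SE 0.16, adjusted p = 0.113), with no overlap of groups. It was called with quantile normalization (0.48, adjusted p = 0.0232) and with array weights (0.33, adjusted p = 0.0325). Probe set notch1a-a was lower by 0.49 (a change of -0.49, SE 0.20, adjusted p = 0.067), also with no overlap. It was called without mutant CNS replicate 2 (-0.61, adjusted p = 0.0475) and with arrays centred on their medians (-0.57, adjusted p = 0.0343). The call was also made with quantile normalization (-0.60, adjusted p = 0.0288) and array weights (-0.55, adjusted p = 0.00765). A replicate block gave a call too (-0.49, adjusted p = 0.05 as rounded), but replicate numbers were not taken to pair arrays of different lines. When only the 6 CNS arrays were fitted, dla (adjusted p = 0.0187), notch1a-a (0.0182), dlc-a (0.43, adjusted p = 0.0441) and dlc-c (-0.37, adjusted p = 0.0331) were called. The values of dlc-a and dlc-c have opposite signs, so the gene has no settled direction here. Epidermal and neuron markers had higher sums in the mutant fraction, and neural progenitor sums overlapped. Of all probe sets 33.3% were called in this comparison (18.1% higher). All 8 epidermal markers measured summed to 4514 to 6775 in mutant against 1480 to 2446 in wild-type CNS cells (6 of 8 higher). The 10 neuron markers summed to 4776 to 5880 against 3225 to 4162 (2 higher), and the 12 neural progenitor markers to 9257 to 11090 against 9671 to 10560 (3 lower). Their part in the pathway values was not tested.

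In GFP-negative cells 4 of the 12 probe sets were higher and 1 lower in the mutant, where 33.9% of all were called (17.0% higher and 16.8% lower). Groups did not overlap for 4 of 12 against 45.3% of all. The rise of dlb-a was 1.09 (SE 0.24, adjusted p = 0.00211), close to its rise in CNS cells. The CNS and rest comparisons set different arrays against each other, but their tests share an estimate of the spread. Probe set dlb-b rose by 0.45 (SE 0.15, adjusted p = 0.0271) from wild-type values under the 40th percentile of their arrays. It was not called without wild-type rest replicate 1 (0.35, adjusted p = 0.111), without mutant rest replicate 2 (0.31, adjusted p = 0.158) or when only these 6 arrays were fitted (adjusted p = 0.0833). Probe set dlc-a rose by 1.18 (SE 0.22, adjusted p = 0.000543), from 175 ± 73.9 to 400 ± 68.8. The other dlc probe set, dlc-c, changed by 0.47 (SE 0.21, adjusted p = 0.0964) with overlapping groups, and was called without wild-type rest replicate 1 (0.65, adjusted p = 0.0379). Of 10 presomitic and tail bud markers 4 were higher and 0 lower in the mutant rest, with summed intensities of 4687 to 6629 against 2262 to 4780, and the part of this in the dlc values was not tested.

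The other calls in the mutant rest changed when single arrays were left out. Probe set her4.5-a was higher by 1.37 (SE 0.48, adjusted p = 0.0331) with overlapping groups, at 141 ± 63.3 against 49.4 ± 42.2. It was not called without wild-type rest replicate 2 (1.03, adjusted p = 0.148) or 3 (1.21, adjusted p = 0.0907), nor without mutant rest replicate 2 (1.32, adjusted p = 0.0827) or 3 (1.08, adjusted p = 0.143). The call was also lost with a pseudocount of 1 (1.72, adjusted p = 0.0538) and with array weights (1.17, adjusted p = 0.0849). Probe set notch1a-b fell by 0.66 on the log2 scale (SE 0.19, adjusted p = 0.0109). It was not called without replicate 1 of the wild-type rest (-0.54, adjusted p = 0.0543) or of the mutant rest (-0.55, adjusted p = 0.0546). In the mutant rest its 3 values (12.9, 20.1 and 20.6) were under the 40th percentile of their arrays. The other probe set of this gene, notch1a-a, changed by -0.31 (SE 0.20, adjusted p = 0.234) with overlapping groups and was called under no setting. The gene her9 changed by -0.46 (SE 0.18, adjusted p = 0.0613) and was called without wild-type rest replicate 3 (-0.68, adjusted p = 0.00659). It was also called without miR-206 rest replicate 1 (adjusted p = 0.0482) or 3 (adjusted p = 0.0412), which enter only the estimate of the spread. Quantile normalization gave a call as well (-0.48, adjusted p = 0.048). So did a replicate block (-0.46, adjusted p = 0.042), but replicate numbers were not taken to pair arrays of different lines.

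**Figure D3:**
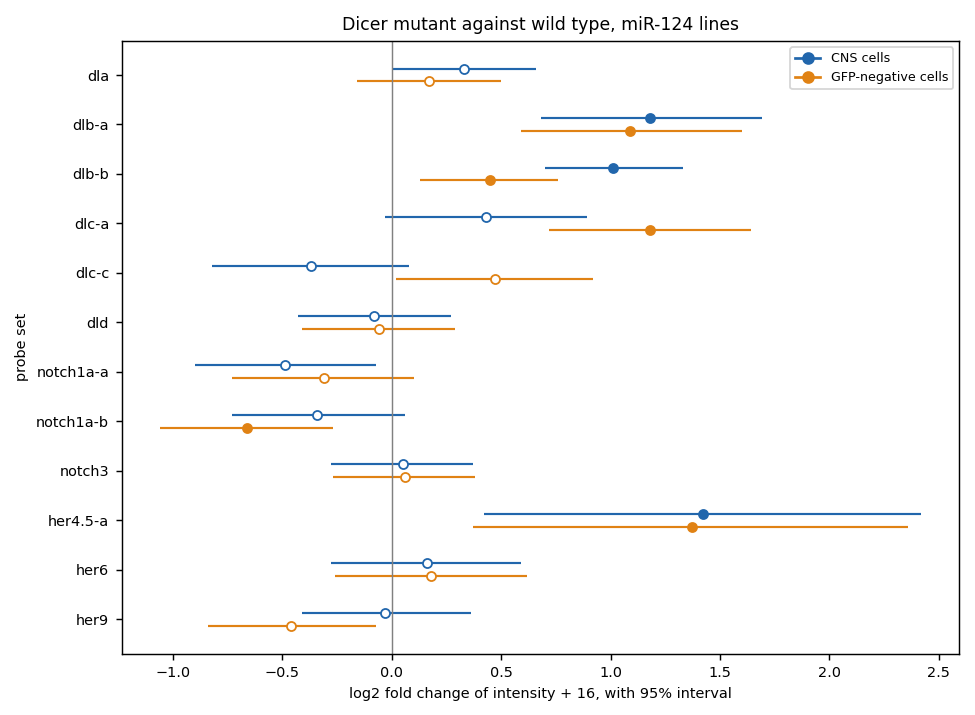
Log2 fold change of Dicer-mutant over wild-type miR-124 lines (x axis, of intensity + 16, with 95% intervals) for 12 probe sets, in CNS cells and in GFP-negative cells, where filled dots have an adjusted p under 0.05. Probe set dlb-a lies at like values in both fractions (1.18 and 1.09), and dlc-a is called in GFP-negative cells, at 1.18.

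Whether the CNS sort itself differed between genotypes was tested as an interaction. By limma's test 0 of the 12 probe sets were called, where 2.28% of all probe sets were, and 3 had an unadjusted p under 0.05. These were dlc-c (-0.84, SE 0.30, adjusted p = 0.193), dlc-a (-0.75, SE 0.31, adjusted p = 0.283) and dlb-b (0.57, SE 0.21, adjusted p = 0.219). Without wild-type rest replicate 1, dlc-a was called (-1.04, adjusted p = 0.0479). For dla the interaction was 0.16 (95% interval -0.31 to 0.63), for notch3 -0.01 (-0.47 to 0.45) and for dlb-a 0.09 (-0.62 to 0.81). For her4.5-a the interval, -1.36 to 1.46, holds differences of over 1 in either direction.

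A list of 97 further genes of the pathway held 48 with a probe set of their own, and 40 passed the filter. In muscle cells 6 of the 40 were higher and 19 lower (median change -0.39, against -0.05 over all probe sets), where 12.5% of all probe sets were called higher and 21.8% lower. The receptor gene notch2 rose from 190 ± 49.4 to 794 ± 68.2 (2.00, SE 0.19, adjusted p = 4.72e-08). The Notch target gene hey1 rose by 2.61 (SE 0.28, adjusted p = 3.15e-07) and the segmentation clock gene her1 by 1.45 (SE 0.23, adjusted p = 4.72e-05). The 3 leading falls were those of her3, a neural her gene (-2.85), the proneural gene ascl1a (-2.80) and insm1b, a gene of differentiating neurons (-3.18). The muscle signal of her3 averaged 0.867 and was at or below the 40th percentile on all 3 arrays. Those of ascl1a (19.1) and insm1b (14.7) were near or below that level by mean. The sizes of these 3 falls, here and against CNS cells below, therefore depend on the pseudocount. All 3 ligand genes that could be tested of 7 listed, jag1a, jag1b and jag2b, fell in muscle cells. So did 5 of the 6 proneural genes tested, of 11 listed.

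In wild-type CNS cells 13 of these 40 genes were higher and 7 lower (median 0.14, against 0.03), where 14.2% of all probe sets were called higher and 17.4% lower. The 3 leading rises were those of ascl1a (2.17, SE 0.21), of her5, a gene of the midbrain and hindbrain boundary (1.38, SE 0.17), and of her3 (1.69, SE 0.20). The 3 leading falls were those of notch2 (-1.64, SE 0.19), hey1 (-1.92, SE 0.28) and her1 (-1.54, SE 0.23). In mutant CNS cells 14 were higher and 6 lower (median 0.23, against 0.01), where 6.32% of all were called higher and 8.57% lower. These were led by her3 (1.90), the ligand gene jag2b (1.32) and ascl1a (1.32), and by falls of the clock genes her1 (-2.52) and her7 (-1.97) and of notch2 (-1.34). The CNS signal of her1, 5.37 in the wild type and 6.0 in the mutant by mean, was at or below the 40th percentile on all 3 arrays of each, as was that of her5 in the wild-type rest (16.0), so the size of these changes depends on the pseudocount. Of 13 hairy-related and feedback genes 7 were higher and 5 lower in the CNS cells of each genotype. Of 8 protease genes, which cut the ligand or the receptor, 0 were called in the mutant CNS sort (also 0 at an unadjusted p under 0.05 by limma) and 1 fell in each of the other sorts.

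Direct comparison of muscle with CNS cells gave 7 of the 40 higher and 19 lower (median -0.35, against -0.06), where 17.7% of all probe sets were called higher and 25.5% lower. These were led by notch2 (2.99), hey1 (3.46) and her1 (2.67), and by ascl1a (-3.76), her3 (-3.15) and insm1b (-3.63). In the miR-206 rest against the miR-124 rest 4 were higher, led by her3 (1.40), ascl1a (1.21) and her5 (0.81), and 2 lower, hey1 (-1.06) and notch2 (-0.65), where 5.82% of all probe sets were called.

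**Figure D4:**
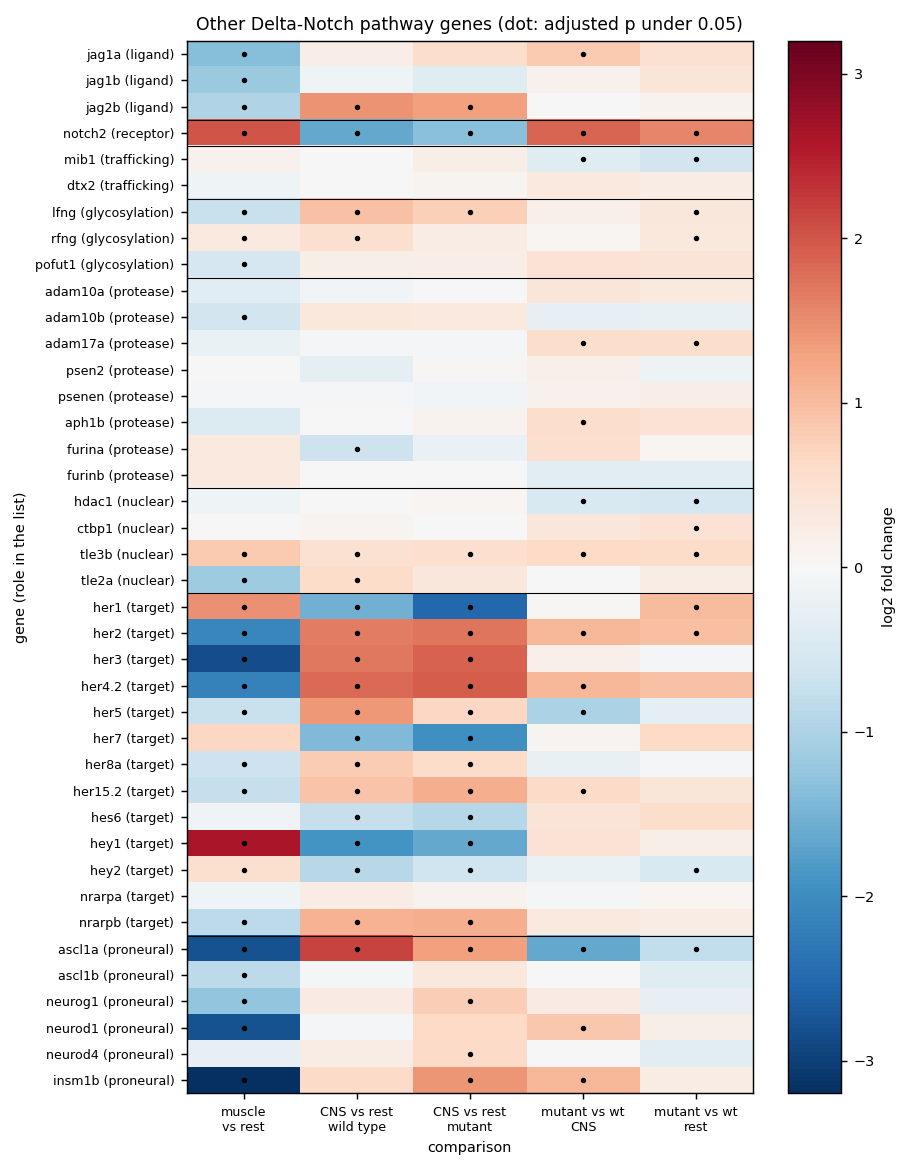
Log2 fold changes (colour) of the 40 other pathway genes that passed the filter in 5 comparisons, grouped by role, where a black dot marks an adjusted p under 0.05. The receptor gene notch2 is higher in muscle (2.00) and in both mutant fractions (1.86 and 1.56) and lower in CNS cells (-1.64 and -1.34).

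Between genotypes, 10 of the 40 were higher and 4 lower in mutant CNS cells (median 0.17, against 0.01), a share of calls near the 33.3% of all probe sets. The receptor gene notch2 averaged 353 ± 31.9 in CNS cells of the mutant and 86.5 ± 17.4 in those of the wild type, a rise by 1.86 (SE 0.19, adjusted p = 9.21e-07). The ligand gene jag1a (0.84, SE 0.20, adjusted p = 0.00311) and tle3b (0.64, SE 0.15, adjusted p = 0.0036), a Groucho-type co-repressor used by Her proteins, followed. The proneural gene ascl1a dropped from 459 ± 44.9 to 137 ± 28.6 (-1.65, SE 0.21, adjusted p = 9.73e-06). The boundary gene her5 (-1.02, SE 0.17) and mib1 (-0.38, SE 0.14, adjusted p = 0.0403), which encodes the ligase that drives Delta uptake, fell too. In GFP-negative cells 8 were higher and 4 lower (median 0.23, against 0.00), also near the share of all probe sets called (33.9%), with notch2 (1.56), her1 (1.01) and tle3b (0.58) the leading rises and mib1 (-0.59), ascl1a (-0.80) and the deacetylase gene hdac1 (-0.54) the leading falls. In the interaction 0 of 40 were called by limma, and 4, her1, her5, ascl1a and insm1b, had an unadjusted p under 0.05.

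Over the 18 arrays dla, dlb, notch3, her4.5-a and her9 varied together, and dlc and dld varied against them. Correlations of log2 values, which describe mostly differences between the groups and carry no test, lay between 0.610 and 0.936 for each pair among dla, dlb-a, dlb-b, notch3, her4.5-a and her9, and dlc-c ran against these at -0.780 to -0.944. Probe set dlc-a ran against them less closely, at -0.565 to -0.84, and dld at -0.516 to -0.682. Among 6407 other named genes, those most like dla were nkx2.9 (r = 0.965), ptprn2 (0.964) and olig2 (0.962), of which nkx2.9 and olig2 encode ventral neural tube factors. Those most like dlb-a were acaca (0.978), fam171b (0.972) and ap3m2 (0.968). For dlc-c they were pcdh8 (0.988), a protocadherin gene of the paraxial mesoderm, cpn1 and plpp1a (both 0.977). For notch3 they were fgfr3 (0.949), hcfc1b and tp53inp1 (both 0.937), and for notch1a-a adar (0.935), oser1 (0.905) and ppp2r5ea (0.879). The pattern of her4.5-a was most like those of her4.2 (0.981), with which it shares sequence, her15.2 (0.964) and her2 (0.957), and that of her9 like those of mdkb (0.974), the neural progenitor gene sox2 (0.962) and pdgfaa (0.960). The likest genes of dld, wars1 (0.870), mrpl53 (0.856) and uqcrq (0.846), and of her6, szl (0.837), lamb1a and vox (both 0.742), were less close.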

How the data were processed

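RNA of sorted zebrafish cells was measured on 18 arrays, with 100 ng of total RNA labelled with biotin per sample. The deposited values are intensities, on a linear scale, computed by the authors with MAS5 per the submitters' processing notes. Neither its version nor its scaling target is stated there, and no detection calls were used. After removal of 2% at each end, the array means lay between 150.03 and 150.04, so the arrays had been scaled. Precision is limited by how many arrays there are.

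Of 15617 probe sets, 115 controls were left out. Probe sets above the 40th percentile of their array on at least 3 of 18 arrays were kept, which left 10704. They were not collapsed to genes. Values were analysed as log2(intensity + 16). limma 3.58.1 in R 4.3.3 fitted 1 mean per group to all 18 arrays (12 residual degrees of freedom) with moderated, intensity-trended variances, and Benjamini-Hochberg adjustment ran over all 10704 probe sets within each of 8 comparisons. Exact permutation of 3 against 3 arrays cannot give a two-sided p below 0.1 and was not used. The fit was tested on simulated data. Summaries used pandas 2.3.3 and scipy 1.17.1 under Python 3.11.15, and plots matplotlib 3.10.9.

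All member probe sets were named. Other pathway genes are the up to 3 with the smallest adjusted p under 0.05 in each direction, and genes of like pattern the 3 with the highest r. Members and lists were chosen with earlier results of these data known. For genes with several probe sets in the other lists, the one with the highest mean was used. Replicate numbers come from the labels. Deviations of same-numbered fractions from their group means correlated at 0.358, 0.363 and 0.202 with the miR-206 reporter and at 0.104, 0.272 and 0.29 in the mutant line, so there these numbers were taken to pair the fractions. They were not so taken in the wild-type miR-124 line (0.191, 0.003 and -0.114). Same-numbered rest arrays of the wild-type lines correlated at 0.159, 0.018 and 0.29, so values of the size seen in the mutant line also arose between different lines. For the sorts, the replicate block was fitted to every line at once. A paired value thus shares its spread with the line not taken as paired. Whether the correlations of same-numbered arrays exceed those of arrays with unlike numbers was not tested. The main fit held no replicate block in any line. Alternatives were other pseudocounts, filters and scalings, 1 probe set per gene, smaller fits, array weights, no variance trend, a replicate block and each array left out. They were examined for the member probe sets and for counts and median changes over all probe sets. No genome build is named for the array, so no coordinates are given.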

Additional observations from a re-analysis of the deposited data

How the results depend on the processing

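Of 96 member values (12 probe sets in 8 comparisons), 43 were called, and 2744 alternative values were computed under 29 settings. Of these, 2673 kept their side of the threshold, 39 lost the call, 32 gained it and 0 called values changed sign. Among the 2673 were 51 values, called in neither setting, that changed sign (at most 0.22 in size as reported and 0.44 in the alternative). The called values of dlb-a and dla, and those of dlc-a and dlc-c in the 3 sorts, kept their calls under every setting in which they were tested. The number of members called was 3 for mutant against wild-type CNS cells, and 7 when only those groups were fitted, 6 with array weights and 5 with quantile normalization. For the rest of the body it was 5, and 3 with the 60th percentile as filter and 2 with 1 probe set per gene. Between the rest groups it was 1, and 0 with a pseudocount of 1, no filter, median centring, 1 probe set per gene or only those groups. With single arrays left out the counts ran from 8 to 10 (muscle), 6 to 7 and 7 to 8 (CNS, wild type and mutant), 2 to 4 and 3 to 6 (mutant, CNS and rest), 0 to 1 (interaction), 8 to 10 (muscle against CNS) and 0 to 3 (rest groups). Of all probe sets, 29.6% to 36.7%, 24.9% to 34.5% and 11.3% to 16.7% were then called in the 3 sorts. The share was 25.4% to 37.0% and 24.8% to 37.4% (mutant, CNS and rest). It was 1.3% to 2.99% (interaction), 36.8% to 45.8% (muscle against CNS) and 3.39% to 6.02% (rest groups). With a replicate block the member counts were 10, 8, 9, 4, 6, 0, 10 and 1 in the same order. The shares of all were then 38.3%, 35.5%, 16.8%, 36.3%, 36.5%, 3.43%, 45.3% and 7.5%. Numbers were not taken to pair arrays beyond the miR-206 and mutant lines. In the sorts of those lines the block changed no call other than those given for dld and her6. In the wild-type CNS sort, where the numbers were not taken to pair arrays, the block gave her6 at -0.44 (adjusted p = 0.0166). The 11 alternative values that moved a called change over 1.5-fold came from the pseudocount, other than that of her4.5-a in muscle cells without 1 rest array, and are given beside their results. Over all probe sets, called in the mutant CNS sort were 1593, and 2628 with array weights. In the interaction they were 244, with 154 at a pseudocount of 1, 367 with the block and 139 to 157 without replicate 1 of either CNS group or replicate 1 or 3 of the mutant rest. Between the rest groups they were 623, with 190 when only those groups were fitted, 379 with weights and 363 without miR-206 rest replicate 1. Quantile normalization moved the higher share of calls in the muscle sort from 36.5% to 47.7%. Median centring moved it from 54.3% to 43.9% (mutant CNS cells), 41.0% to 53.3% (muscle against CNS, median change -0.06 to 0.06) and 37.4% to 53.0% (rest groups). Signal near background limits notch1b, dlc-b, her4.5-b, the muscle values of dlb-b, her4.5-a, her3, ascl1a and insm1b, the CNS values of her1 and the rest values of her5. It also limits the wild-type miR-124 rest values of dlb-b and the mutant rest values of notch1a-b.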

Other observations

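Of 13 hairy-related and feedback genes tested, 3 rose and 1, her5, fell in CNS cells of the Dicer mutant, a share near that of all probe sets (33.3% called). The genes named here were picked after their values were seen, and the values below were not examined under the other settings. The neural gene her2 rose from 247 ± 17.5 to 555 ± 195 (1.05, SE 0.30, adjusted p = 0.0114). The probe set of her4.2 used in that list went from 190 ± 94.9 to 385 ± 108 (1.05, SE 0.38, adjusted p = 0.0398) and her15.2 from 76.4 ± 17.9 to 126 ± 31.2 (0.62, SE 0.23, adjusted p = 0.0447). Of the probe sets annotated to several her4 copies, that of her4.1, her4.3 and her4.5 rose by 1.95 (adjusted p = 8.42e-05) and that of her4.2, her4.3 and her4.5 by 1.35 (adjusted p = 0.0168). These copies share sequence, so their rises are not separate counts. In GFP-negative cells her2 was higher in the mutant as well (0.97, SE 0.30, adjusted p = 0.0181), while her15.2 changed by 0.38 (adjusted p = 0.214).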
